A study of Mus musculus with 14 samples.

Results

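Interferon-stimulated genes are the genes that cells switch on when interferon binds its receptors. The 29 described here are a list of symbols, chosen with earlier results of these data known and not by a rule on their levels, matched to the Ensembl gene IDs of the deposited table through GENCODE M21. All 29 were found among 47729 genes, all 29 had at least 1 count in some library, and 28 passed the filter on low counts. RNA was sequenced from 14 samples of sorted knee synovial cells of C57BL6 mice aged 16 weeks. The CD200+ non-immunized group (libraries 1 to 4) held CD200+CD105- cells of mice given phosphate buffered saline (PBS). The CD200+ arthritis group (libraries 5 to 9) held CD200+CD105- cells of mice in which arthritis had been induced by antigen: they were immunized with methylated bovine serum albumin (mBSA) together with Freund's complete adjuvant (CFA) and then given mBSA in the joint. The CD105+ arthritis group (libraries 10 to 14) held CD200-CD105+ cells of mice with the same arthritis. In every group the cells were TER119-, CD31-, CD45- and CD51+, tissue was taken 10 days after the injection into the joint, and 200 to 500 cells were lysed per sample. There was no CD105+ group without arthritis. Whether each sample is a separate animal is not in the labels, so p-values measure the spread between these samples, which may be partly technical.

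Type I interferons bind a receptor of the chains IFNAR1 and IFNAR2, and type II interferon (interferon gamma) binds IFNGR1 and IFNGR2. The JAK kinases then activate transcription factors that bind the interferon-stimulated response element and the gamma-activated site in the promoters of target genes. IRF9 takes part in binding the response element. In the arthritic joint interferon-stimulated genes are best known from macrophages and synovial fibroblasts. The members fall by role into 4 transcription factors, 2 RNA sensors, the 2 genes of the ISG15 system, 3 IFIT proteins, 2 Mx proteins, 2 OAS proteins, 5 other antiviral effectors, 4 guanylate-binding proteins and 5 immunity-related GTPases.

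Both sequence motifs were searched in the promoters of RefSeq genes (GRCm38.p6, 250 bases before to 50 after the transcription start), and 24 of the 29 members had a promoter in that table. The core of the response element, GAAANNGAAA on either strand, was in 16 of the 24 (66.7%), against 3.99% of all 27025 genes. The gamma-activated site, TTCNNNGAA, which reads the same on both strands, was in 8 of the 24 (33.3%), against 9.55% of all genes. Of the 24 members, 6 had both and 6 had neither (Irf7, Irf9, Oasl2, Ifi44, Xaf1 and Ifi47). At least 2 response element cores, which may overlap each other, were in 7 members. A match is a description of the letters in these windows and does not show that a factor binds there. The windows below, of 60 bases each and written 5' to 3' on the gene's strand, are shown because they carry motifs of members described in detail below (Isg15, Oas1a and Rsad2), of an IFIT, a guanylate-binding and a pair of GTPase genes, and of Oas3, a pathway gene. Capitals mark the response element core on either strand. In GENCODE M21 none of the windows lies in an exon. The Irgm2 window lies in an intron of Irgm2 itself and the others lie outside genes.
Isg15, chr4:156200850-156200909, minus strand: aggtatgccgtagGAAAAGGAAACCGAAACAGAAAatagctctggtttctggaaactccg
Ifit1, chr19:34640779-34640838, plus strand: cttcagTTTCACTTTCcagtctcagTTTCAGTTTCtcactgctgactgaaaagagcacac
Oas1a, chr5:120907526-120907585, minus strand: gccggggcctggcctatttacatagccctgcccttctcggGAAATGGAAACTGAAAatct
Rsad2, chr12:26456538-26456597, minus strand: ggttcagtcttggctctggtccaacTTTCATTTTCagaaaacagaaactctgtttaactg
Gbp7, chr3:142530258-142530317, plus strand: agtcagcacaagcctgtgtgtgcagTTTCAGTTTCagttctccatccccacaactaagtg
Igtp, chr11:58199496-58199555, plus strand: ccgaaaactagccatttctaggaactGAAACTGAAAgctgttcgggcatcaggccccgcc
Irgm2, chr11:58214888-58214947, plus strand: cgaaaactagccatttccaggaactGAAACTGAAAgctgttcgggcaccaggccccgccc
Oas3, chr5:120777700-120777759, minus strand: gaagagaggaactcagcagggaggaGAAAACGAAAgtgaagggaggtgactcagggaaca
In Isg15 3 overlapping cores begin 78, 72 and 66 bases before the start, and in Oas1a 2 begin 20 and 14 bases before it. In Rsad2 a single core, on the opposite strand, begins 120 bases before the start. The Igtp and Irgm2 windows hold almost the same letters: a gamma-activated site begins 45 bases before the start in Igtp and 75 in Irgm2, and a response element core 34 and 64 bases before it.

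**Figure D1:**
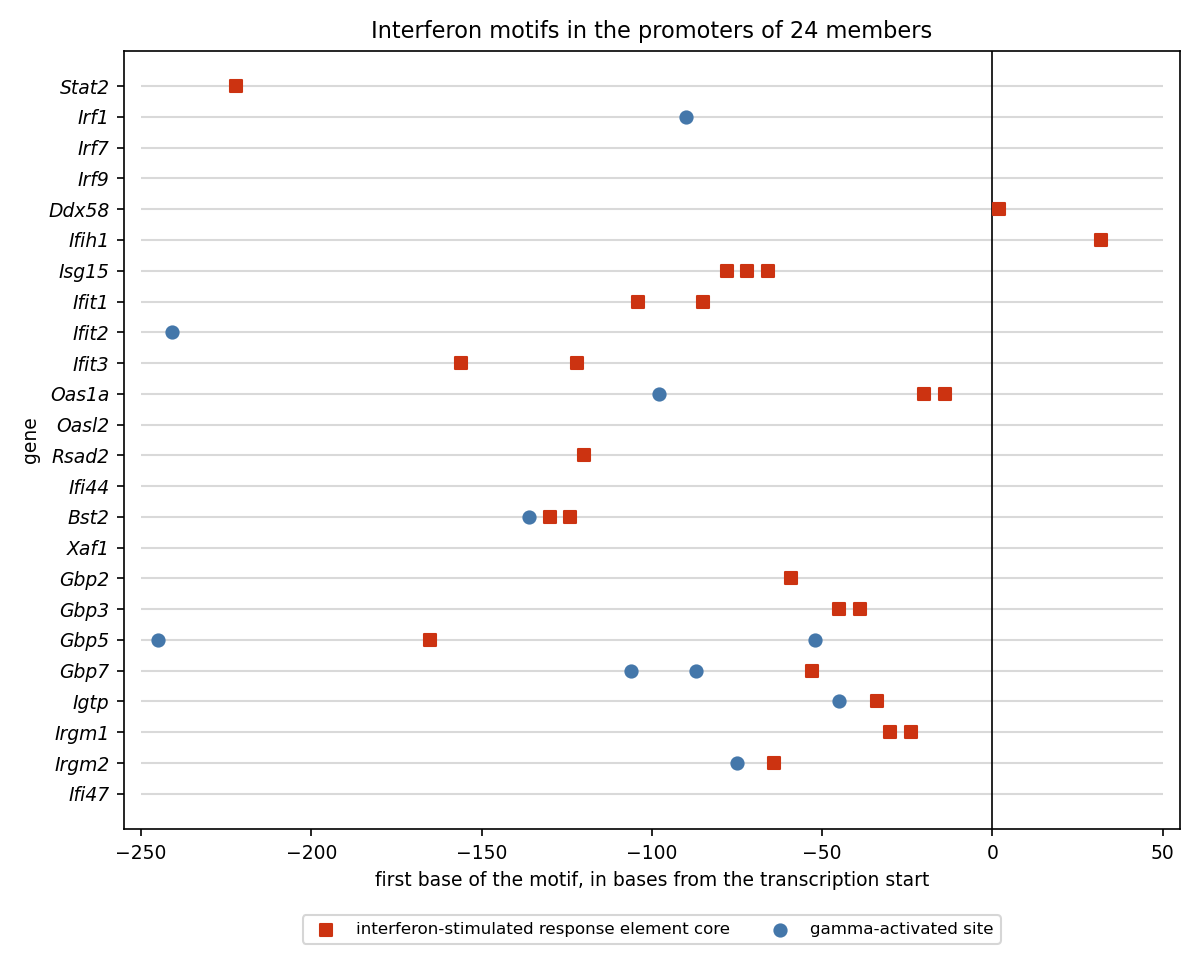
Each row is the promoter of 1 of the 24 members with a RefSeq promoter, from 250 bases before to 50 bases after the transcription start (vertical line). Red squares mark the first base of a response element core and blue circles the first base of a gamma-activated site. 16 rows hold a square, 8 hold a circle and 6 are empty.

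Levels are CPM, the counts of a gene relative to its library's counts of the genes that passed the filter on low counts. They are on the usual CPM scale and adjusted between libraries by the trimmed mean of M-values. Spike-in RNA took 20.3% to 92.0% of the counts of a library and over 80% in libraries 2, 5 and 6, which left 2919666 to 18553803 gene counts. A gene with 3 counts stood at 0.171 to 0.914 CPM in a library. The summed level of 10 erythroid markers was 27840 to 248890 CPM in the CD105+ libraries and 4.25 to 10408 CPM in the CD200+ ones, and that of 10 stromal and osteoblast markers was 103 to 1503 CPM against 564 to 27038 CPM. Skeletal stroma markers were thus low and erythroid markers high in the cells sorted as CD105+ and TER119-, and Runx2 was at 0 in all 5 libraries. Cd200 stood at 2.30 CPM on average there, against 420.3 in the CD200+ arthritis group. Eng, the gene of CD105, stood at 6.63 CPM on average in CD105+ cells, with no count in library 10, against 0.504 CPM in CD200+ arthritis and 5.29 CPM in CD200+ non-immunized cells, and its groups overlapped (adjusted p = 0.170 and 0.918, edgeR). Itgav (CD51) stood at 7.44, 35.9 and 32.3 CPM in the same order, and Ptprc (CD45) had 535, 1 and 338 counts. Leukocyte markers were high in 3 libraries: B and plasma cell markers summed to 6786 CPM and neutrophil markers to 7011 CPM in library 3, neutrophil markers to 2288 CPM in library 4, and macrophage markers to 5865 CPM in library 11. Between the CD200+ groups, stromal and osteoblast markers had medians of 18604 CPM without and 3960 CPM with arthritis (5416 to 27038 and 564 to 9620 CPM). Erythroid markers had medians of 3165 and 109 CPM there, with overlapping ranges. Skeletal muscle markers summed to 239 to 1157 CPM in the CD200+ libraries and 0.446 to 11.2 CPM in the CD105+ ones. Mural markers summed to 314 to 1435 CPM and 3.79 to 235 CPM. In bulk samples fewer cells of a type and less RNA per cell cannot be told apart.

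Members were detected unevenly. A library held counts for 11 to 28 of the 29 members, and the lowest number was in library 2, where spike-ins took 85.4% of counts. Only Irf9, Ifit2, Oasl2 and Irgm1 had a count in all 14 libraries. The summed level of the members was 251 to 1007 CPM in the CD200+ non-immunized group, 547 to 1070 CPM in the CD200+ arthritis group and 581 to 963 CPM in the CD105+ group, so these ranges overlapped. Per kilobase of merged exon, Bst2, the membrane protein tetherin that holds back budding virus, was the highest member in every group (mean 75.9, 38.0 and 47.9 CPM per kb in the order of the groups). Rtp4, a receptor transporter protein induced by interferon, was the next highest in both CD200+ groups (23.7 and 32.7 CPM per kb), and Oas1a was in the CD105+ group (24.4 CPM per kb). Library 3 held the highest level of its group for 14 of the 27 members with counts in that group. Library 12 did for 12 of 29.

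**Figure D2:**
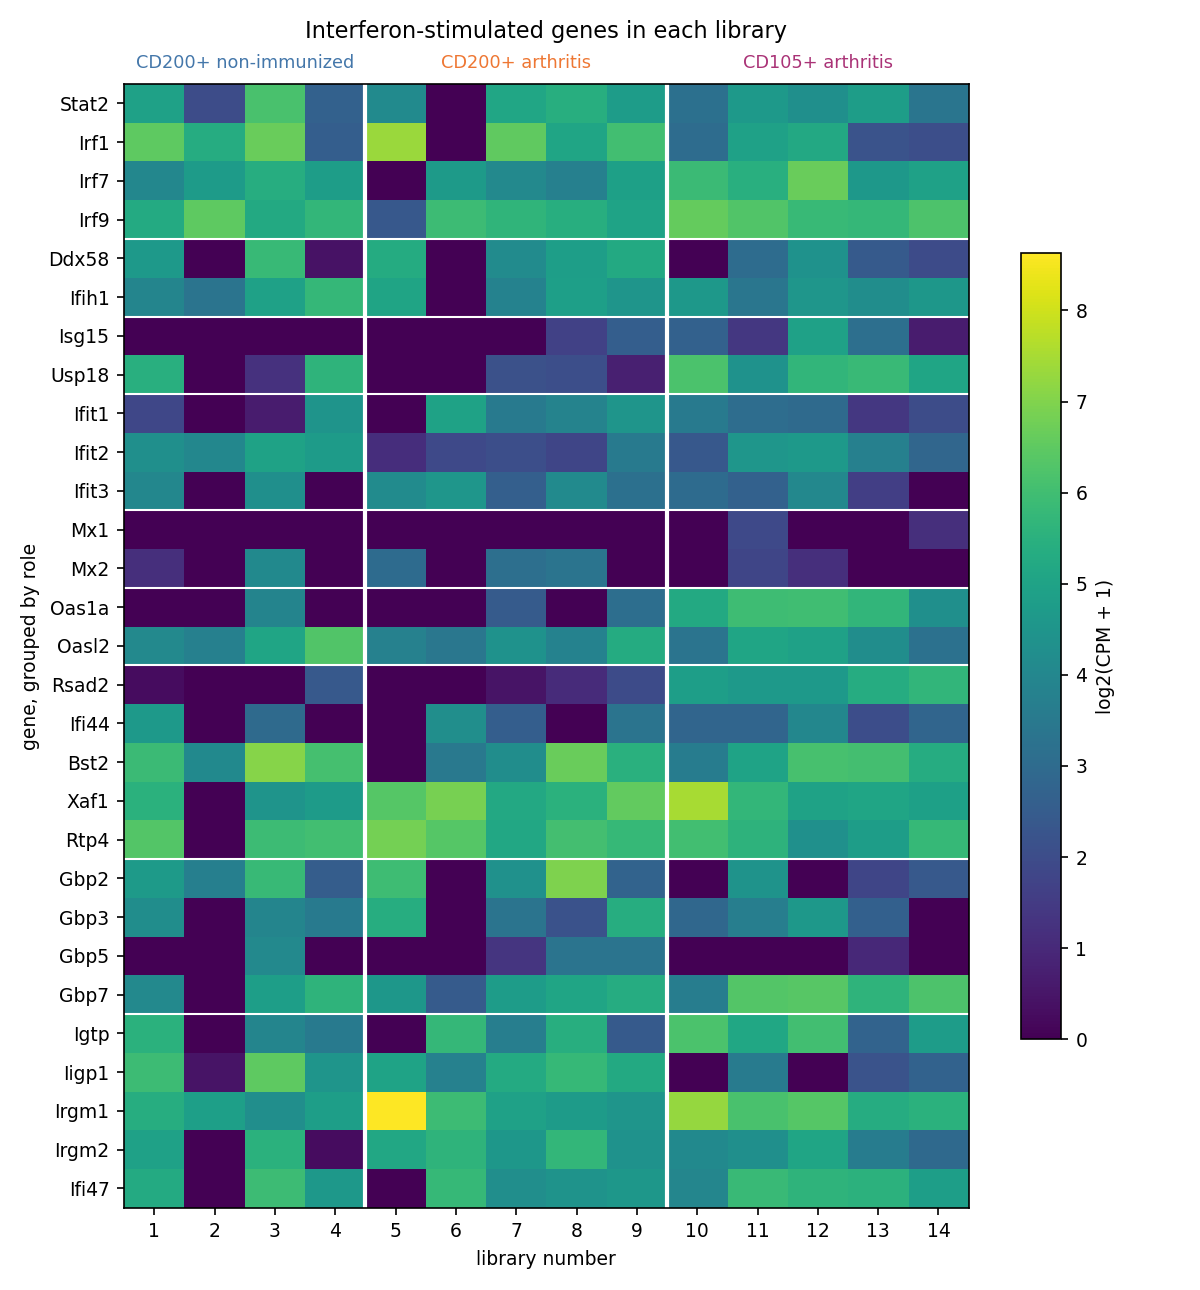
Colour gives log2(CPM + 1) of each of the 29 members (rows, white lines between roles) in each of the 14 libraries (columns, white lines between groups). Library 2 has the most members at 0, and Rsad2 and Oas1a are brighter in the 5 CD105+ libraries than in the CD200+ ones.

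The first comparison asked how the members differed in CD200+ cells with arthritis against cells of the same sort phenotype without it. The part of the stromal and erythroid markers, whose medians differed between these groups as given above, was not tested. None of the 28 tested members passed, as none of all 15015 tested genes did (0%; edgeR's quasi-likelihood test, Benjamini-Hochberg adjusted p under 0.05). At an unadjusted p under 0.05, 4 members stood apart, Isg15 and Irgm1 towards a higher and Ifit2 and Usp18 towards a lower level, and 915 of all 15015 genes did (6.09%). DESeq2 called 1 member, Ifit2, among 303 genes, and limma voom called no member among 4 genes. The median log2 change was 0.06 over the members and -0.10 over all tested genes, with 14 members above 0 and 14 below. The members' median was -0.06 with DESeq2's size factors and -0.11 with spike-in library sizes, against -0.27 and 0.008 over all genes. The even split depended on the libraries used. Without library 3 the median was 0.57, with 19 members above 0 and 9 below. Without the 3 libraries with high leukocyte markers it was 0.84, with 21 above and 7 below. Without the 3 libraries with over 80% spike-ins it was -0.11, with 9 above and 19 below. The medians over all genes were -0.04, 0.03 and -0.01 in these fits.

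Ifit2 (ENSMUSG00000045932, chr19:34550694-34576419, plus strand, GRCm38), an IFIT protein that binds viral RNA, was at 18.5, 15.0, 30.7 and 25.9 CPM in libraries 1 to 4 and at 1.21, 2.74, 3.25, 2.46 and 10.7 CPM in libraries 5 to 9. Every library with arthritis was below every library without it. The log2 change was -2.46 ± 0.87 (SE, worked back from the change and its test statistic) and the adjusted p 0.636 (edgeR). Ifit2 was the 1 member whose groups did not overlap towards lower values, and none did towards higher values, against 1.18% and 1.11% of all tested genes. With library sizes from spike-ins the Ifit2 groups overlapped.

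Usp18 (ENSMUSG00000030107, chr6:121245906-121270917, plus strand), the protease that removes ISG15 from proteins and damps interferon receptor signalling, was at 43.1, 0, 1.33 and 48.0 CPM without arthritis and at 0, 0, 3.40, 3.21 and 0.694 CPM with it. Libraries 1 and 4 were high and the other 2 non-immunized libraries lay within the range of the arthritis group. The log2 change was -3.93 ± 1.55 and the adjusted p 0.674 (edgeR). Isg15 (ENSMUSG00000035692, chr4:156199424-156200818, minus strand), the small protein that is joined to other proteins during an interferon response, had no count in libraries 1 to 4 and was at 0, 0, 0, 2.19 and 5.05 CPM in libraries 5 to 9. Its counts in the arthritis group were 112 in all, which is at least 39.9-fold higher than the limit of 3 counts over the non-immunized group (adjusted p = 0.636, edgeR), and they came from libraries 8 and 9 only. An Isg15-like transcript (AC151275.1) matched it at 95.2% over 482 bases and was not among the tabled genes.

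Irgm1 (ENSMUSG00000046879, chr11:48861968-48871683, minus strand), an immunity-related GTPase of the response to intracellular microbes, was at 40.2, 28.6, 18.2 and 28.0 CPM without arthritis and at 396, 59.1, 29.5, 25.5 and 21.6 CPM with it. Library 5 alone was far above the rest, library 6 was above the non-immunized range, and the other 3 lay within it. The log2 change was 1.89 ± 0.85 (adjusted p = 0.762, edgeR). Without the 3 libraries with over 80% spike-ins, library 5 among them, the change was -0.18.

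The second comparison set the CD105+ against the CD200+ cells of arthritic mice. It shares the CD200+ arthritis libraries with the first comparison. None of the 28 tested members passed in edgeR, against 11.3% of all tested genes (719 higher and 973 lower). At an unadjusted p under 0.05 there were 3 members, Usp18 and Rsad2 towards higher and Iigp1 towards lower levels in CD105+ cells. They were 10.7% of the tested members, against 26.8% of all tested genes. Other fits called more members and mostly more genes: DESeq2 called 4 members (Rsad2, Usp18, Ifit2 and Iigp1) among 3569 genes and limma voom 5 (Rsad2, Usp18, Oas1a, Iigp1 and Gbp5) among 4624. With the 2 groups alone edgeR called 2 members (Rsad2 and Usp18) among 1396 genes. The groups did not overlap for 3 members towards higher values in CD105+ cells (Usp18, Rsad2 and Oas1a), against 10.4% of all tested genes, and for 1 towards lower values (Iigp1), against 6.33%. Rsad2, Oas1a and Isg15 did not reach the filter on low counts in the CD200+ libraries alone and were tested because of their CD105+ levels, so a difference was built into their being tested. Their p-values and their part in these counts are no evidence beyond the levels. The median log2 change was -0.10 over the members and -0.05 over all tested genes. With library sizes from spike-ins these medians were 1.12 and 1.22, so directions are relative to the other genes.

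Usp18 was at 72.7, 20.0, 49.9, 56.6 and 32.6 CPM in libraries 10 to 14, and its highest level in the CD200+ arthritis group was 3.40 CPM. All 5 CD105+ libraries were above all 5 CD200+ arthritis libraries, while libraries 1 and 4 of the CD200+ non-immunized group lay within the CD105+ range. The log2 change against the CD200+ arthritis group was 4.94 ± 1.59 and the adjusted p 0.0602 (edgeR). Usp18 passed in edgeR where the 3 libraries with over 80% spike-ins were left out, where library 2 was left out, and where the genes of the authors' filtered table alone were tested.

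Rsad2 (ENSMUSG00000020641, chr12:26442746-26456452, minus strand), the gene of viperin, an enzyme that makes a chain-terminating nucleotide against viral RNA synthesis, was at 27.9, 24.5, 24.1, 39.4 and 50.5 CPM in CD105+ cells. In CD200+ arthritis cells it was at 0, 0, 0.378, 1.09 and 2.97 CPM. The level of the lowest CD105+ library was well above that of any CD200+ library. The log2 change was 5.16 ± 1.71 and the adjusted p 0.0660 (edgeR). Oas1a (ENSMUSG00000052776, chr5:120896256-120907521, minus strand), a synthetase of the 2-5A signal that activates RNase L, was at 37.2, 61.2, 62.6, 50.2 and 18.5 CPM in CD105+ cells and at 0, 0, 4.61, 0 and 7.70 CPM in CD200+ arthritis cells. These groups did not overlap either, but the adjusted p was 0.217 (edgeR). Oas1a is 97.6% identical to Oas1g over 1861 bases, so reads of the pair may have been split between them, and Oas1g was at 18.3, 17.8, 29.1, 0 and 0 CPM in the CD105+ libraries.

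Iigp1 (ENSMUSG00000054072), an immunity-related GTPase that acts on the vacuoles of intracellular parasites, was at 0, 11.1, 0, 3.60 and 5.61 CPM in CD105+ cells and at 31.6, 12.8, 37.9, 53.7 and 36.9 CPM in CD200+ arthritis cells. The ranges were close only between library 11 and library 6. The log2 change was -3.08 ± 1.40 and the adjusted p 0.176 (edgeR). With library sizes from spike-ins the 2 groups overlapped. Ifit2 was at 4.24, 22.3, 24.4, 12.5 and 6.20 CPM in CD105+ cells and overlapped the CD200+ arthritis range through libraries 10 and 14 (log2 change 1.76 ± 0.83, adjusted p = 0.187, edgeR).

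The third comparison, which has a difference of both phenotype and disease, set the CD105+ arthritis cells against the CD200+ non-immunized cells. It shares libraries with each of the other comparisons. Isg15 was the 1 member of 28 that passed in edgeR, against 13.2% of all tested genes (836 higher and 1146 lower). At an unadjusted p under 0.05 there were 3 members, Isg15 and Rsad2 towards higher and Iigp1 towards lower levels in CD105+ cells. This share of 10.7% compares with 29.1% of all tested genes. DESeq2 called Isg15, Rsad2 and Iigp1 among 4085 genes, and limma voom called those and Oas1a among 4993. The groups did not overlap for 3 members towards higher values in CD105+ cells (Isg15, Rsad2 and Oas1a), against 12.5% of all tested genes, and for none towards lower values, against 11.5%. Isg15, Rsad2 and Oas1a were tested because of their CD105+ levels, as stated above, so a difference was built in here too. Their p-values, the Isg15 call and their part in these counts are no evidence beyond the levels. The median log2 change was -0.16 over the members and -0.24 over all tested genes, and 0.67 and 1.21 with library sizes from spike-ins. With spike-in scaling Irf9 and Irgm1 joined these 3 members in not overlapping, 5 in all, and the share of all genes is not given. The members' median was 0.41 without library 3, 0.25 without the 3 libraries with high leukocyte markers and -0.51 without those over 80% spike-ins. Over all genes it was -0.10, -0.08 and -0.20 in these fits.

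Isg15 was at 5.35, 1.62, 29.4, 7.99 and 0.591 CPM in libraries 10 to 14 and had no count in libraries 1 to 4. Library 12 held most of the CD105+ counts, and libraries 8 and 9 of the CD200+ arthritis group lay within the CD105+ range. The 506 counts of the CD105+ group were at least 149.6-fold higher than the limit of 3 counts over the non-immunized group (adjusted p = 0.0420, edgeR). The call was lost when any 1 of the CD200+ non-immunized or CD105+ libraries was left out, when library 8 was left out, with library sizes from spike-ins, with no filter on low counts, and without the 3 libraries with high leukocyte markers.

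Rsad2 was at 0.232, 0, 0 and 4.30 CPM in the CD200+ non-immunized group, all below the 24.1 CPM of the lowest CD105+ library. Its log2 change was 4.85 ± 1.85 and its adjusted p 0.0980 (edgeR). Oas1a was at 0, 0, 13.9 and 0 CPM in libraries 1 to 4, so the closest pair was library 3 and library 14 at 18.5 CPM (adjusted p = 0.298, edgeR). Iigp1 was at 59.1, 0.374, 88.6 and 21.5 CPM without arthritis, and only library 2 fell within the CD105+ range (log2 change -3.37 ± 1.46, adjusted p = 0.140, edgeR). Irgm1 was at 153, 70.6, 80.2, 39.4 and 45.1 CPM in CD105+ cells, all but library 13 above the highest non-immunized library (log2 change 1.43 ± 0.83, adjusted p = 0.282, edgeR).

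**Figure D3:**
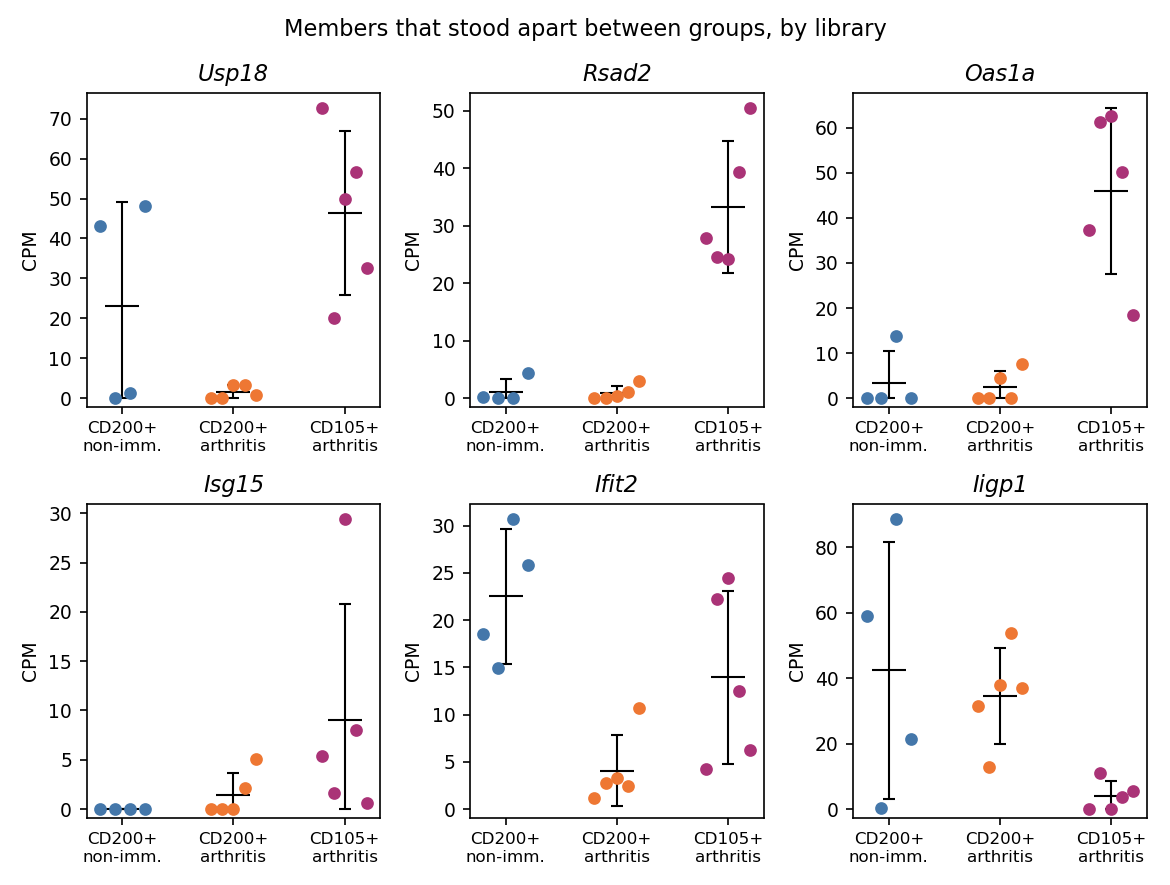
Points are libraries, with the level in CPM on a linear axis from 0 in each panel, and the black bar and whiskers are the mean and SD of the group (4, 5 and 5 libraries), with the lower whisker stopped at 0. Rsad2 and Oas1a are higher in every CD105+ library than in every CD200+ library, Usp18 separates from the CD200+ arthritis group alone, and Isg15 is at 0 in the 4 non-immunized libraries.

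The transcription factors were expressed in all groups, and none of the 4 passed in any comparison. Irf9, which binds the response element together with STAT2, was at 53.7 ± 24.0, 37.3 ± 21.2 and 71.1 ± 17.5 CPM (mean ± SD, n = 4, 5 and 5). Irf7, the factor that amplifies type I interferon production, was at 27.1 ± 10.3, 16.4 ± 11.4 and 51.1 ± 31.1 CPM. Irf1, an early target of interferon gamma, was at 58.0 ± 43.7, 69.4 ± 60.6 and 16.0 ± 15.6 CPM, and its CD105+ libraries reached 35.9 CPM at most. Stat2 was at 27.3 ± 31.6, 23.6 ± 16.1 and 17.6 ± 8.77 CPM. For each of these genes the spread between libraries of a group was of the order of the difference between groups.

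The RNA sensors were Ddx58 (RIG-I), which detects viral RNA ends, and Ifih1 (MDA5), which detects long double-stranded RNA. Ddx58 ranged from 0 to 55.2 CPM in the CD200+ libraries and from 0 to 19.9 CPM in the CD105+ ones. Ifih1 was at 26.5 ± 19.8, 19.1 ± 12.9 and 19.1 ± 5.69 CPM. Ifit1 and Ifit3, partners of Ifit2 in binding foreign RNA, did not follow its order of levels in the CD200+ groups. Ifit1 was at 2.56, 0, 0.570 and 20.9 CPM without arthritis and at 0, 30.8, 10.5, 13.7 and 21.5 CPM with it. Ifit3 had means of 8.45 and 13.8 CPM there, and it is 97.8% identical to Ifit3b over 1700 bases, which had 194 counts in all.

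The Mx proteins, dynamin-like GTPases that block viral nucleocapsids, were scarce. Mx1 did not pass the filter: it had no count in the 9 CD200+ libraries and 63 counts in all in libraries 11 and 14, at 2.76 and 1.26 CPM. Mx2 was above 0 in 7 libraries and reached 16.0 CPM in library 3. The pair is 95.3% identical over 843 bases, so reads may have been split. Oasl2, an OAS-like protein, was found in every library, at 34.9 ± 30.2, 19.0 ± 11.9 and 19.5 ± 11.4 CPM, and did not show the separation of Oas1a. Of the other antiviral effectors, Xaf1, a pro-apoptotic protein, was at 22.8 ± 18.2, 74.3 ± 33.6 and 64.6 ± 64.9 CPM, and Rtp4 at 50.4 ± 34.6, 69.6 ± 29.5 and 42.2 ± 18.8 CPM. Bst2 reached from 0 to 133 CPM and overlapped in all groups, and Ifi44 reached from 0 to 23.7 CPM.

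The guanylate-binding proteins are GTPases that attack the membranes of vacuoles and microbes and respond mainly to interferon gamma. Gbp2 was at 24.5 ± 22.5, 42.1 ± 51.5 and 5.45 ± 8.55 CPM, and Gbp3 at 10.6 ± 7.68, 18.7 ± 20.1 and 9.43 ± 8.94 CPM. Gbp5, a promoter of inflammasome assembly, had counts in 5 libraries and stood at 0 in 4 of the 5 CD105+ ones. Gbp7 was at 22.8 ± 20.3, 25.2 ± 13.1 and 59.4 ± 30.0 CPM, and its order of group means was thus not that of Gbp2. None of the 4 passed in any comparison. Among the immunity-related GTPases Igtp was at 17.3 ± 19.1, 22.1 ± 23.5 and 40.3 ± 27.2 CPM, Irgm2 at 18.8 ± 22.5, 35.5 ± 14.3 and 17.1 ± 9.72 CPM, and Ifi47 at 30.3 ± 25.2, 23.1 ± 19.3 and 38.7 ± 17.3 CPM. Igtp and Irgm2 share 162 bases of exon on the same strand, so reads there cannot be told apart.

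**Figure D4:**
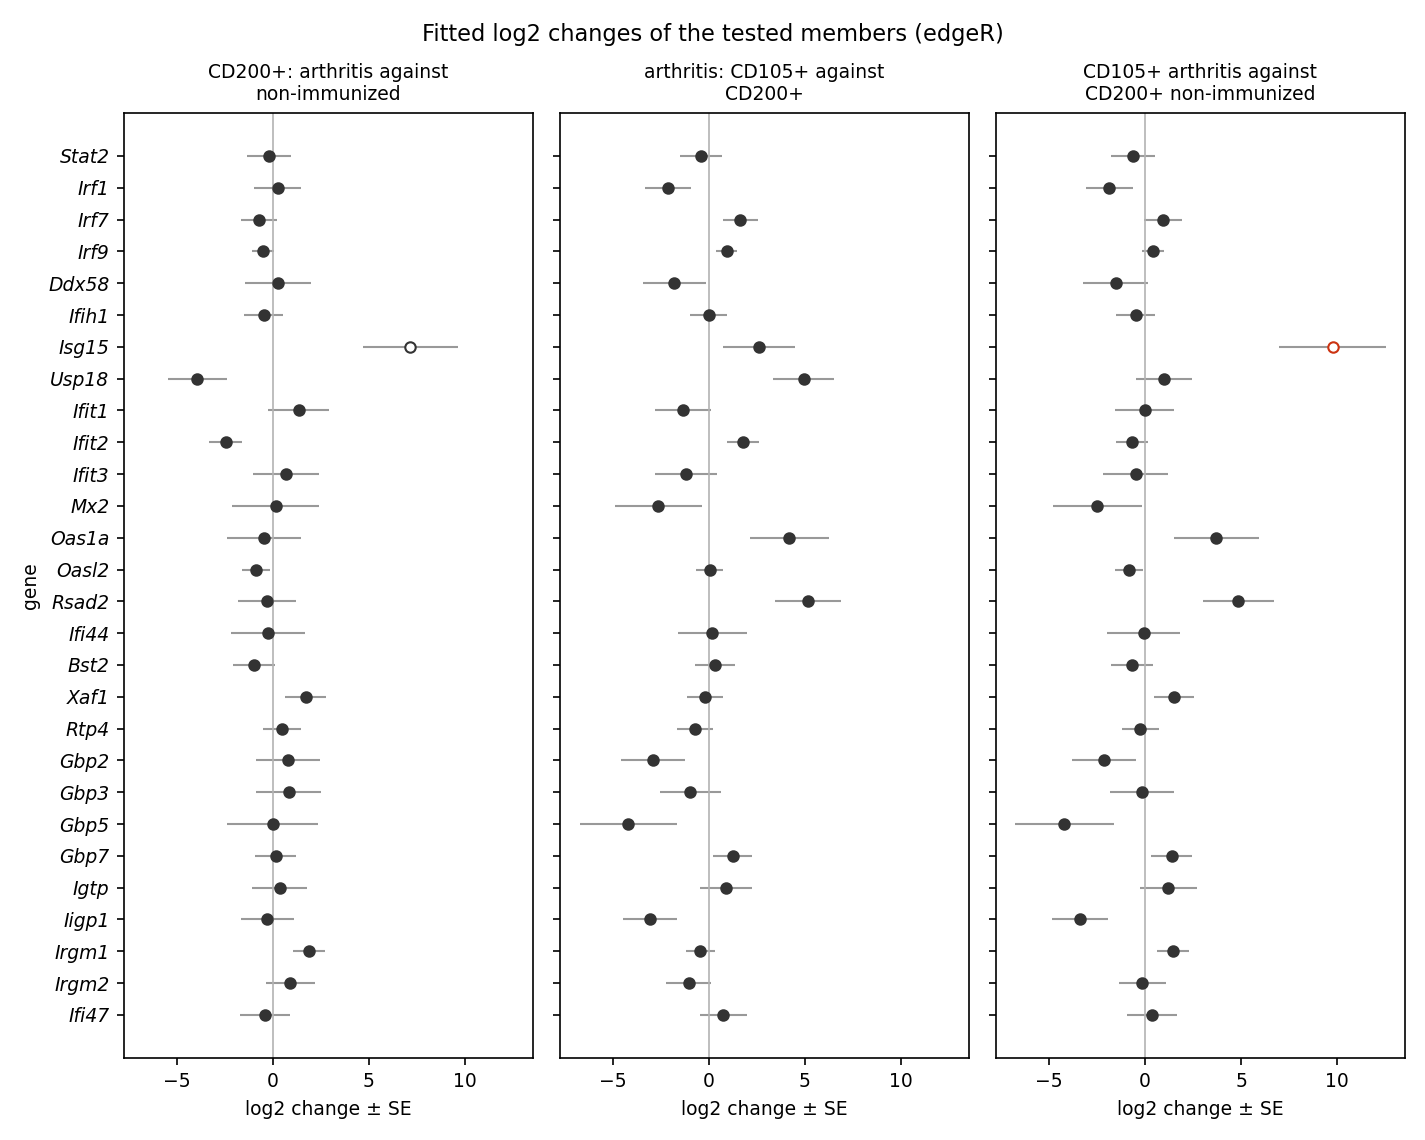
Each point is the log2 change fitted by edgeR for 1 of the 28 tested members, with bars of 1 SE, in the 3 comparisons. Red marks the 1 call (Isg15, CD105+ arthritis against CD200+ non-immunized), of a gene that was tested because of its CD105+ levels. Open symbols mark genes with a group at 0, whose fitted value depends on the prior count and is no measure of size. In the first 2 panels no member passed.

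The other genes of the pathway were taken from 5 lists of 108 genes, of which 83 were tested. Of 13 interferon ligand genes none passed the filter and only Ifnz had any count, at most 1.22 CPM. Ifnz has near copies outside the 13, such as Gm13283 (98.6% identical over 1462 bases, 68 counts in all), so reads may have been split. In CD200+ cells with against without arthritis, none of the 83 passed in edgeR. Of the 83, 5 had an unadjusted p under 0.05, against 6.09% of all tested genes. In CD105+ against CD200+ arthritis cells 7 were higher and 2 lower. In CD105+ arthritis against CD200+ non-immunized cells 4 were higher and 2 lower. By list, in the order of these 2 comparisons, the 11 tested genes of receptors and JAK-STAT signalling gave 0 higher and 1 lower in each. The 9 negative regulators gave 1 higher and 0 lower, then 0 higher and 1 lower, and the 15 nucleic acid sensing genes gave 1 higher, then none. The 48 other effectors gave 5 higher and 1 lower, then 4 higher and 0 lower. Over all genes 11.3% and 13.2% passed. Ptpn6, Adar, Oas1c and Oas3 did not reach the filter on low counts in the CD200+ libraries alone, so a difference was built into their being tested. Their adjusted p-values and their part in these counts are no evidence beyond the levels.

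Ifngr1, the ligand-binding chain of the interferon gamma receptor, was at 45.3, 70.3, 94.2, 30.1 and 38.3 CPM in CD105+ cells and at 416, 141, 170.1, 164 and 243 CPM in CD200+ arthritis cells. Non-immunized CD200+ cells were at 317, 375, 136 and 206 CPM. All CD105+ libraries were below all CD200+ ones, and Ifngr1 fell against both groups (log2 change -2.03 ± 0.42, adjusted p = 0.00864, and -2.22 ± 0.44, adjusted p = 0.00590, edgeR). With library sizes from spike-ins the changes were -0.61 and -0.74 and did not pass. Stat3 did not pass (adjusted p = 0.107 and 0.0582, edgeR), at 66.7 ± 62.2, 103 ± 109.8 and 10.0 ± 7.65 CPM in CD200+ arthritis, CD200+ non-immunized and CD105+ cells.

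Of the negative regulators, Socs3, which blocks JAK kinases, was at 0, 19.3, 9.77, 1.03 and 0.812 CPM in CD105+ cells and at 70.8, 1201, 95.0 and 162 CPM in CD200+ non-immunized cells. Library 2 was far above the others, and the groups did not overlap. Socs3 fell in CD105+ cells against this group (log2 change -5.94 ± 1.36, adjusted p = 0.0122, edgeR). The change was -3.09 with library sizes from spike-ins and did not pass. Against CD200+ arthritis cells, at 32.9 to 151 CPM, the adjusted p was 0.0557. Ptpn6, the phosphatase SHP-1 of blood cells, was at 43.2 to 129 CPM in CD105+ cells and had 2 counts in the CD200+ arthritis group, a ratio of 1718 (95% counting interval 475 to 14192, adjusted p = 0.00709, edgeR). It was at 0, 0, 3.42 and 35.5 CPM in the CD200+ non-immunized group and did not pass against it (adjusted p = 0.258, edgeR).

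Of the sensing genes, Adar, an enzyme that edits double-stranded RNA and keeps it from the sensors, was at 21.6, 32.2, 63.9, 10.9 and 46.2 CPM in CD105+ cells. It had no count in CD200+ arthritis cells and was found in library 1 alone of the non-immunized ones, at 13.3 CPM. The 2117 counts in CD105+ cells were at least 585-fold higher than the limit of 3 counts over the CD200+ arthritis group (adjusted p = 0.0283, edgeR). The call was lost without library 7, 9, 12 or 14, and Adar shares 1365 exon bases with Chrnb2 on the opposite strand.

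Of the other effectors, Ly6e rose in CD105+ cells. Ly6e is a membrane protein that limits virus entry, and was at 964, 865, 867, 827 and 845 CPM in CD105+ cells, at 66.4 to 229 CPM in CD200+ non-immunized and at 72.1 to 277 CPM in CD200+ arthritis cells. The CD105+ libraries spread little (874 ± 53.2 CPM, SD, n = 5), and none overlapped with a CD200+ library (log2 change 2.21 ± 0.38, adjusted p = 0.00296, against arthritis and 2.67 ± 0.42, adjusted p = 0.00158, against non-immunized cells, edgeR). With library sizes from spike-ins neither passed (3.46 and 3.91). Lgals9, the secreted lectin galectin-9, was at 677, 338, 789, 579 and 464 CPM in CD105+ cells and at 21.8 to 149 CPM in all CD200+ libraries (log2 change 3.02 ± 0.56, adjusted p = 0.00478, and 3.02 ± 0.61, adjusted p = 0.00662, edgeR). The second of these calls was lost without libraries 3, 4 and 11, those with high leukocyte markers.

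Oas1c, a relative of Oas1a, had no count in the 9 CD200+ libraries and was at 12.9, 14.9, 17.0, 31.2 and 20.2 CPM in CD105+ cells. Its 1302 counts were at least 359.97-fold higher than the limit in CD200+ arthritis and at least 384.9-fold higher than that in CD200+ non-immunized cells (adjusted p = 0.00717 and 0.00842, edgeR). Oas3, which makes long 2-5A chains, was at 6.69, 12.5, 23.6, 5.65 and 17.9 CPM in CD105+ cells and had 3 and 4 counts in the CD200+ arthritis and non-immunized groups. Its ratio to the former was 228 (95% counting interval 77.9 to 1109.6, adjusted p = 0.0167), and its log2 change against the latter was 7.50 ± 2.00 (adjusted p = 0.0254, edgeR). The second call was lost without any 1 of libraries 1, 2 and 3, with library sizes from spike-ins, with no filter, and, as for Oas1c, without the 3 libraries with high leukocyte markers. Reads of OAS relatives that share sequence may be split between them.

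Isg20, an exonuclease of single-stranded RNA, was named after its values were seen. It was at 675, 304, 459.6, 706 and 708 CPM in CD105+ cells, at 0, 33.2, 7.78, 0 and 4.86 CPM in CD200+ arthritis cells and at 42.0, 55.9, 55.0 and 4.88 CPM in CD200+ non-immunized cells. All CD105+ libraries were above all others, and Isg20 rose against the CD200+ arthritis group (log2 change 5.99 ± 1.40, adjusted p = 0.0155, edgeR) but did not pass against the non-immunized group (3.85 ± 1.38, adjusted p = 0.0795). Ifitm3, a membrane protein that stops virus fusion, was the effector that fell: it was at 954, 879, 634, 872 and 644 CPM in CD105+ cells and at 3168, 8376, 2395, 2242 and 2054 CPM in CD200+ arthritis cells (log2 change -2.19 ± 0.39, adjusted p = 0.00385, edgeR). With library sizes from spike-ins the change was -0.31 and did not pass. In CD200+ cells Ifitm3 was at 912 to 1970.0 CPM without arthritis, below every library with it, and did not pass there (log2 change 1.15 ± 0.41, adjusted p = 0.636, edgeR).

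**Figure D5:**
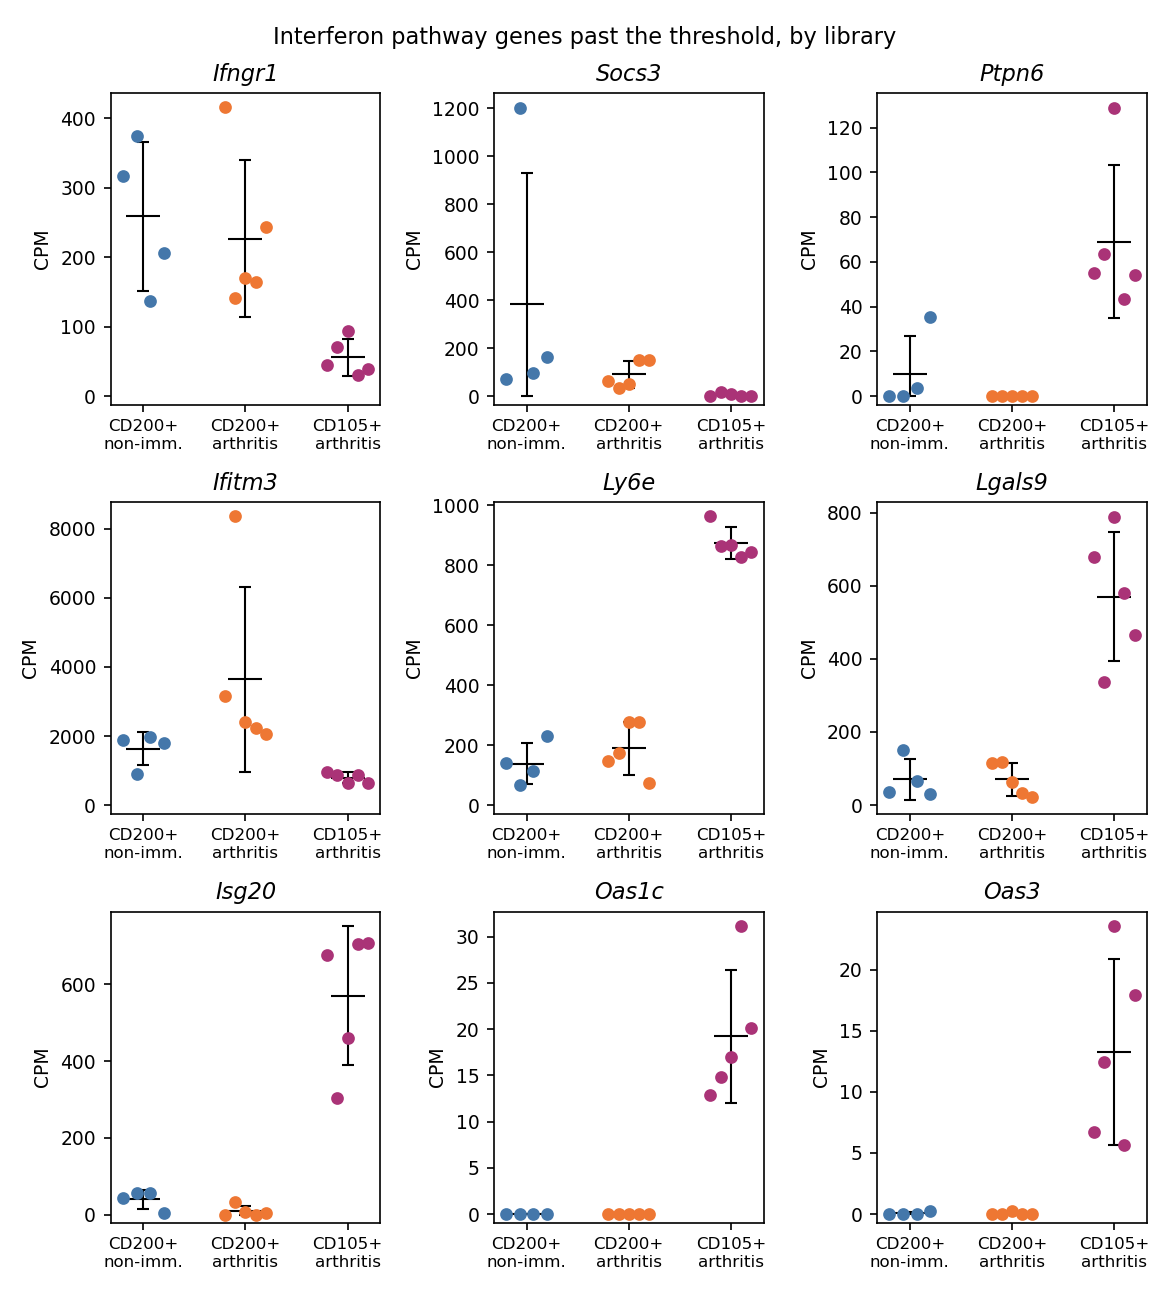
Points are libraries of each group, with the level in CPM on a linear axis from 0 in each panel, and the black bar and whiskers are the mean and SD (4, 5 and 5 libraries), with the lower whisker stopped at 0. The panels show 9 of the 10 pathway genes that passed in at least 1 comparison, without Adar. Ly6e, Lgals9, Isg20, Oas1c, Oas3 and Ptpn6 are higher and Ifngr1 and Socs3 are lower in every CD105+ library than in every CD200+ library.

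The part of the erythroid markers in the differences between CD105+ and CD200+ cells was not tested. They were high in all 5 CD105+ libraries, so erythroid RNA and the CD105+ phenotype cannot be told apart in these groups. Nor was the part of the skeletal muscle and mural markers tested, which were lower in every CD105+ than in every CD200+ library. The part of the leukocyte markers, high in library 11 of the CD105+ group, was not tested either. Within that group library 11 held the highest level for 6 of the 29 members, and library 12 for 12.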

How the data were processed

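RNA of 14 samples of sorted synovial cells was sequenced (SMART-Seq v4 cDNA with ERCC spike-ins, Nextera XT libraries, NextSeq 500, per the labels' protocols). Per the submitters' processing notes the tools were cutadapt, HISAT2, StringTie and edgeR (no versions) and the genome GRCm38 (mm10). Whether counting used strand was not given in the sources used here. The deposited table holds whole-number counts per gene (47821 entries, of which 92 are spike-ins), per the file headers and the values. The deposited filtered table of 14322 genes holds the same counts. Symbols and positions came from GENCODE M21 (47310 of 47729 gene IDs matched).

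From the counts, genes were filtered with edgeR's filterByExpr (minimum count 10, 15015 genes kept), scaled by TMM and tested in 1 quasi-likelihood model of the 3 groups, with p-values adjusted by Benjamini-Hochberg over all tested genes and a threshold of 0.05 (edgeR 4.0.16, limma 3.58.1, DESeq2 1.42.0, R 4.3.3). The test was also run on counts simulated from its own fitted spread, which cannot show how it copes with single outlying libraries or mixed cell types. No pair of libraries of the same group agreed within sampling noise, and pairs across groups were not compared. Spike-ins stayed out of library sizes. A floor of 3 counts over a group served for genes at 0. Intervals are at 95% and, like floors, cover counting error only. Near copies of members were sought with blastn 2.17.0 (at least 95% identity over 200 bases), and promoters came from RefSeq.

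Values were printed for each member past the threshold and for the 4 with the smallest p in each comparison, and up to 4 genes were named per pathway list and comparison. The other members are given by role. Alternatives were DESeq2's size factors, spike-in library sizes, no filter, a filter of 10 CPM in 4 libraries, a fit without the robust option, the 2 groups alone, DESeq2, limma voom, the filtered table's genes, leaving out libraries with over 80% spike-ins and leaving out each library in turn. Leaving out 3 libraries with over 1000 CPM of leukocyte markers was chosen after seeing the data. The members and lists were chosen with earlier results of these data known.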

Additional observations from a re-analysis of the deposited data

Results flagged for a closer look

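Of 84 groups of 4 or 5 libraries tested over the members, 12 held a library whose level lay far from the others by Dixon's test. Chance flags about 1 in 20 groups of normally distributed values without ties. The test used untransformed CPM, for which that rate need not hold, and every flagged level lay above the others. The 12 flags can thus not be read as an excess over chance. Where all the others are at 0, any count is flagged, so the rate also fails for Gbp5 and Oas1a below and for other groups with many libraries at 0. Among the CD200+ non-immunized libraries, library 3 was high for Mx2 (16.0 CPM, the others at most 1.22), Oas1a (13.9 CPM, the others at 0) and Gbp5 (15.8 CPM, the others at 0), and library 4 for Ifit1 (20.9 CPM, the others at most 2.56) and Rsad2 (4.30 CPM, the others at most 0.232). These 2 libraries also had the high neutrophil markers given above, and library 3 the high B and plasma cell markers. The part of these markers in the levels was not tested. In the CD200+ arthritis group, Ifit2 was at 10.7 CPM in library 9 (the others at most 3.25) and Irgm1 at 396 CPM in library 5 (the others at most 59.1). In the CD105+ group, library 12 was high for Isg15 (29.4 CPM, the others at most 7.99) and Ifi44 (15.1 CPM, the others at most 6.06), library 10 for Xaf1 (179.7 CPM, the others at most 51.0), library 11 for Gbp2 (20.4 CPM, the others at most 4.36), and library 13 for Gbp5 (0.970 CPM, the others at 0).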

How the results depend on the processing

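Members called in CD200+ cells with against without arthritis numbered 0, and 1 by DESeq2. In CD105+ against CD200+ arthritis cells the number was 0, and 1 with the filtered table's genes (Usp18), 1 without the libraries over 80% spike-ins (Usp18), 2 with the 2 groups alone, 4 by DESeq2 and 5 by limma voom. In CD105+ arthritis against CD200+ non-immunized cells it was 1, and 0 with spike-in library sizes, with no filter, with the strict filter and without the libraries with high leukocyte markers, 3 by DESeq2 and 4 by limma voom. Isg15, above 10 CPM in library 12 alone, was not tested under the strict filter. Leaving out each library in turn gave 0 to 0, 0 to 1 and 0 to 1 members. In the second comparison the 1 member was Usp18 without library 2 and Rsad2 without library 4, and in the third it was Oas1a without library 3, Rsad2 without library 4 and Isg15 without library 5, 6, 7 or 9. The Irgm1 change of 1.89 in the first comparison was -0.18 without the libraries over 80% spike-ins. The causes were not tested.

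Over all genes, the first comparison's 0 calls became 303 by DESeq2, 4 by limma voom, 2 without library 3 and 1 without the libraries with high leukocyte markers. The second's 1692 (719 higher) became 545 (390 higher) with spike-in library sizes, 3569 by DESeq2, 4624 by limma voom, 1090 without library 14 and 1114 without the libraries with high leukocyte markers. The third's 1982 (836 higher) became 278 (167 higher) with spike-in library sizes, 4085 by DESeq2, 4993 by limma voom, 1308 without library 14 and 570 without the libraries with high leukocyte markers, and with DESeq2's size factors 669 of 2099 were higher. With 4 or 5 libraries a group and a common biological coefficient of variation of 1.28, members at a few CPM could differ widely without passing. No paired analysis was possible because the library numbers are not shared between groups.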
